A study of Drosophila melanogaster with 6 samples.

Results

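The 6 Hsp70 genes of Drosophila melanogaster, Hsp70Aa and Hsp70Ab at cytological position 87A and Hsp70Ba, Hsp70Bbb, Hsp70Bb and Hsp70Bc at 87C, were followed through 3 ChIP-seq peak lists for the bZIP transcription factor CrebA. They are 6 of 13946 protein-coding genes on the chromosome arms. The genes were taken by RefSeq symbol on 3R (dm6), and every peak that overlapped a gene span extended by 1 kb on each side was counted as theirs. The 6 genes were chosen by their peaks in these same lists (number, summit and rank by fold), so these values are given as a description with no test.

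The study comprised 6 libraries from whole embryos at stages 11 to 16, 3 of them immunoprecipitates (IP) and 3 inputs. In the first 2 IP libraries the embryos were fkh-GAL4::UAS-CrebA-GFP or sage-GAL4::UAS-CrebA-GFP, so that CrebA with a GFP tag was made under the fkh-Gal4 or sage-Gal4 driver and pulled down through its tag with anti-GFP. The drivers work in several tissues and have the salivary gland in common, and the embryos keep their own CrebA. The third IP library came from Oregon R, a wild-type strain for which the labels name no transgene, in which untagged CrebA was precipitated with an antiserum to CrebA. The embryos of every library were collected for 8 h and aged for 11 h. Each group had 1 library and hence no replicates, and the drivers and Oregon R differ in antibody, tag and source of CrebA at once. Peak lists carry no marker of tissue, so the labelled tissue could not be checked here.

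Hsp70 is the main stress-induced chaperone of the fly cytosol, which binds unfolded proteins. Without heat its genes are nearly silent but poised: the promoter is open, bound by GAGA factor and TBP, and RNA polymerase II waits just after the start until heat shock factor (Hsf) arrives. The copies are near identical in sequence, so a short read from one can align as well to another. UAS and Gal4 vectors commonly carry the minimal promoter of Hsp70; which vectors were used in these flies is not given in the sources used here. For these reasons reads from a transgene or from a neighbouring copy can be placed at any of the 6 genes, and the extent of this was not tested.

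The genes lay in a pair and in a set of 4. Hsp70Aa (3R from 11954163 to 11956544) and Hsp70Ab (3R from 11958535 to 11960909) were separated by 1990 bp. At 87C, Hsp70Ba (3R from 12465453 to 12467776) stood 34733 bp away from Hsp70Bbb (3R from 12502510 to 12504856), which was followed by Hsp70Bb (3R from 12505793 to 12508139) and Hsp70Bc (3R from 12509076 to 12511461) with gaps of 936 bp. The gene table used here gives no strand. From the known arrangement, Hsp70Aa and Hsp70Ab are transcribed away from each other, and Hsp70Ba away from the 3 tandem copies. The promoter-side end is therefore the end coordinate of Hsp70Aa and Hsp70Ba and the start coordinate of the other 4.

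The sage-Gal4 list had 1 peak at the promoter-side end of each of the 6 genes, the Oregon R list had 1 there at each of the 6 and further peaks inside 4 of them, and the fkh-Gal4 list had a single peak, at Hsp70Bb. By the rule with 1 kb on each side, 1 peak of the fkh-Gal4 list fell to 2 genes, since the window of Hsp70Bbb reaches the start of Hsp70Bb, 6 peaks of the sage-Gal4 list fell to 6 genes, and 10 peaks of the Oregon R list fell to 6 genes. Of all 13946 protein-coding genes, 33.6% had a peak by the same rule in the fkh-Gal4 list, 43.3% in the sage-Gal4 list and 67.8% in the Oregon R list. Among the 2099 genes of 2000 to 3000 bp, close to the Hsp70 genes in length, the shares were 32.2%, 43.5% and 72.8%. The counts at the Hsp70 genes were part of how these genes were chosen, and nothing is read from them against these shares.

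**Figure D1:**
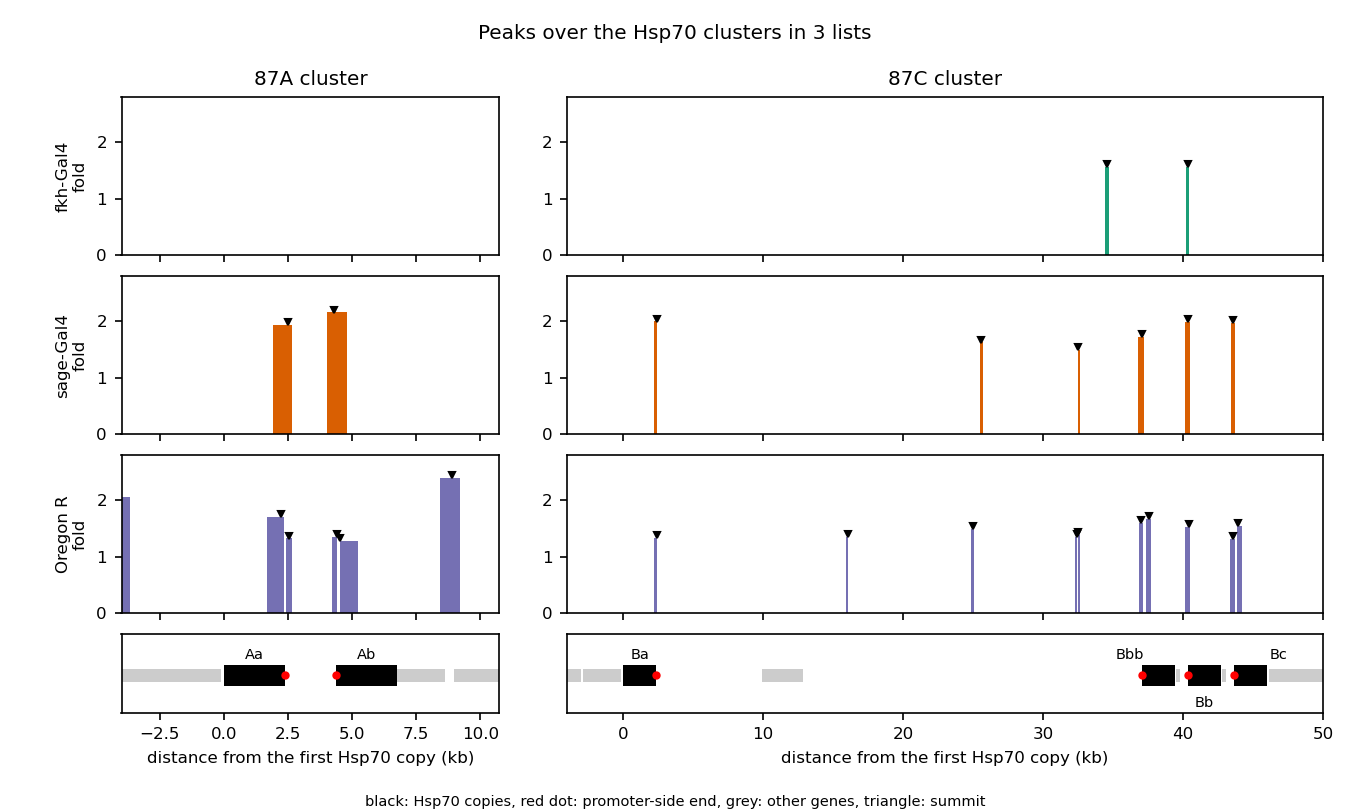
Peaks over the 87A and 87C clusters in the fkh-Gal4, sage-Gal4 and Oregon R lists (top to bottom); the height of a bar is the authors' fold enrichment, its width the peak, and the x axis is the distance in kb from the first Hsp70 copy of the cluster. Each of the 6 copies has a sage-Gal4 and an Oregon R peak at its promoter-side end (red dot), and only Hsp70Bb has one in the fkh-Gal4 list.

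At 87A, the peak of the sage-Gal4 list at Hsp70Aa had its summit 130 bp before the gene and a fold enrichment of 1.94, the authors' value for the IP over the local background. The Oregon R list had a fold of 1.32 at a summit 165 bp before Hsp70Aa, and a second peak with a fold of 1.71 whose summit lay 165 bp inside the gene. At Hsp70Ab the sage-Gal4 summit stood 70 bp before the gene with a fold of 2.16, the highest of the 17 peaks at the Hsp70 genes. The Oregon R summits at Hsp70Ab lay 46 and 161 bp inside the gene, with folds of 1.35 and 1.28. No fkh-Gal4 peak lay at this pair, and the nearest fkh-Gal4 summit was 7523 bp from the promoter-side end of Hsp70Aa.

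At 87C, Hsp70Ba had a sage-Gal4 summit 64 bp before the gene (fold 2.0) and an Oregon R summit 68 bp before it (fold 1.33). The first tandem copy, Hsp70Bbb, had a sage-Gal4 summit 20 bp before the gene (fold 1.72), and Oregon R summits 23 bp before it (fold 1.59) and 494 bp inside it (fold 1.67). Hsp70Bb, the one copy with a peak in every list, had summits 15 bp inside the gene in the fkh-Gal4 list (fold 1.57), 17 bp inside in the sage-Gal4 list (fold 1.99) and 101 bp inside in the Oregon R list (fold 1.53). Hsp70Bc had a sage-Gal4 summit 26 bp before the gene (fold 1.97), and Oregon R summits 30 bp before it (fold 1.31) and 332 bp inside it (fold 1.54). The copies thus shared a peak within 165 bp of the promoter-side end, and the peaks furthest inside a gene came from the Oregon R list.

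The 13 promoter-side peaks, 1 per copy and list, had their summits before the gene in 9 cases and inside it in 4. Summits of different lists nearly coincided at several copies: the sage-Gal4 and Oregon R summits were 4 bp apart at Hsp70Ba, 3 bp at Hsp70Bbb and 4 bp at Hsp70Bc, and the fkh-Gal4 and sage-Gal4 summits were 2 bp apart at Hsp70Bb. At Hsp70Aa, Hsp70Bb and Hsp70Ab the sage-Gal4 and Oregon R summits were 35, 84 and 116 bp apart. A summit within 200 bp of either gene end was found at 14.5% of all protein-coding genes in the fkh-Gal4 list, 21.8% in the sage-Gal4 list and 42.3% in the Oregon R list. The peaks were 205 bp wide at Hsp70Bb in the fkh-Gal4 list, 257 to 784 bp in the sage-Gal4 list and 211 to 365 bp at the promoter-side ends in the Oregon R list.

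**Figure D2:**
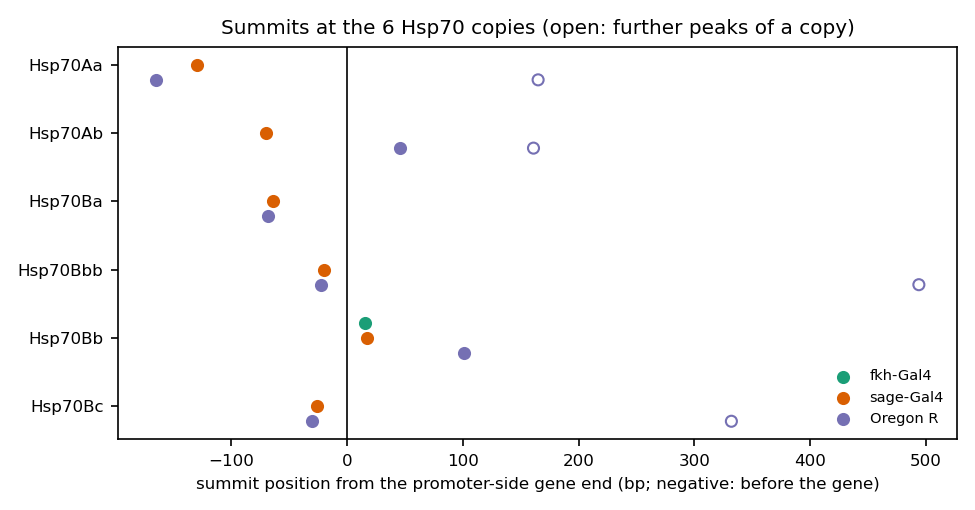
Position of every summit at the 6 Hsp70 genes, in bp from the promoter-side end of the gene (negative values lie before the gene), with the fkh-Gal4, sage-Gal4 and Oregon R lists in colour and further peaks of a copy as open circles. The filled points lie within 165 bp of the end, and the open ones, all from Oregon R, lie 161 to 494 bp from it, those at 161 and 165 bp at Hsp70Ab and Hsp70Aa.

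The position of the peaks by fold differed between the lists. In the fkh-Gal4 list Hsp70Bb was at rank 5340 of 6464, or 82.6% of the way down. In the sage-Gal4 list the best was Hsp70Ab, at rank 1888 of 7916 (23.9%), followed by Hsp70Ba at 2804, Hsp70Bb at 2878, Hsp70Bc at 2992, Hsp70Aa at 3196 and Hsp70Bbb at 5430 (68.6%). In the Oregon R list the promoter-side peaks stood towards the bottom: ranks ran between 11269 for Hsp70Bbb and 14028 for Hsp70Bc out of 14039, and 4 of the 6, at Hsp70Aa, Hsp70Ab, Hsp70Ba and Hsp70Bc, were past 99% of the list. The best Oregon R rank at any copy was 9273 (66.1%), for the peak inside Hsp70Aa. By the authors' −log10 q the positions were higher: 42% of the way down in the fkh-Gal4 list, 13.7 to 34.8% in the sage-Gal4 list, and 57.4 to 98.7% for the promoter-side peaks of the Oregon R list. All peaks by the rule lay within 494 bp of a promoter-side end, and the nearest peak outside the windows that belonged to no copy was an Oregon R peak 1699 bp beyond Hsp70Ab (fold 2.39).

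A fold and a p-value per peak fix the coverage behind them. Under the published formulas of the peak caller, in which the fold is (IP + 1)/(background + 1) and p is a Poisson tail, 99.5% of the fkh-Gal4 peaks, 97.9% of the sage-Gal4 peaks and 95.7% of the Oregon R peaks could be solved, with an IP coverage that was a whole number of fragments, to within 0.02, times a constant of the library (0.597, 0.535 and 0.624). A single solution was found for 94.5%, 95.9% and 91.2% of the peaks, and among these the background, too, was a whole number to within 0.01 in 48.7%, 46.2% and 56.6%. A whole background is read here as a count of input fragments over the summit, although the sources used here do not give how the inputs entered the calls. Of the 17 Hsp70 peaks, 15 had a single solution. For the promoter-side peaks of Hsp70Aa and Hsp70Bbb in the Oregon R list, with 2 and 4 solutions, the one with a whole background was taken; the others put the IP at 178 fragments and the background at 83.8 for Hsp70Aa, and the lowest were 247 and 96.6 for Hsp70Bbb. The lowest background was 39.0 fragments in the fkh-Gal4 list, 36.2 in the sage-Gal4 list and 45.2 in the Oregon R list and recurred in 599, 1190 and 2135 peaks; it is called the genome-wide background here. IP and background are therefore given apart for each listed peak at an Hsp70 copy.

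The Hsp70 promoter-side peaks stood on some of the highest backgrounds of each list. At Hsp70Bb the background was 94 fragments in the fkh-Gal4 list, where the median peak had 51.0. In the sage-Gal4 list it was 64 fragments at Hsp70Aa, 61 at Hsp70Ab, 63.5 at Hsp70Ba, 81 at Hsp70Bbb, 70 at Hsp70Bb and 69 at Hsp70Bc, with a median of 44.0 over all peaks. In the Oregon R list it was 89 fragments at Hsp70Aa, 97 at Hsp70Ab, 109 at Hsp70Ba, 99 at Hsp70Bbb, 104 at Hsp70Bb and 113 at Hsp70Bc, and the median over all peaks was 57.0. All 13 were above the 95th percentile of peaks that had their summit within 200 bp of a protein-coding gene end, which was 72 fragments in the fkh-Gal4 list, 59 in the sage-Gal4 list and 83 in the Oregon R list.

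The promoter-side background was 2.41 times the genome-wide background of the same library at Hsp70Bb in the fkh-Gal4 list. Over the 6 copies it was 1.68 to 2.24 times in the sage-Gal4 list and 1.97 to 2.50 times in the Oregon R list. The value of the fkh-Gal4 list lay within the range of the Oregon R list, and the sage-Gal4 and Oregon R ranges overlapped. Copy by copy, however, the sage-Gal4 value was below the Oregon R value everywhere but at Hsp70Bbb (2.24 and 2.19). Only listed peaks give a background, so the fkh-Gal4 value stands for 1 of the 6 copies. Inside the genes it was lower at some copies: the Oregon R peaks inside Hsp70Bbb and Hsp70Bc had backgrounds of 52 and 54.2 fragments, 1.15 and 1.20 times the genome-wide value, and that inside Hsp70Aa had 72. The second Oregon R peak of Hsp70Ab, 161 bp inside the gene, had 98.

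IP coverage at the listed promoter-side peaks of the driver lists was above the median, for fkh-Gal4 at Hsp70Bb alone. On a high background a peak is listed only with high IP coverage. A standing above the median thus follows in part from the listing itself. The fkh-Gal4 IP had 248 fragments at Hsp70Bb, against a median of 152 over all fkh-Gal4 peaks. The sage-Gal4 IP had 234 fragments at Hsp70Aa, 248 at Hsp70Ab, 239 at Hsp70Ba, 262 at Hsp70Bbb, 262 at Hsp70Bb and 256 at Hsp70Bc, against a median of 158, and 0.684 to 4.34% of the sage-Gal4 peaks had more. The Oregon R IP had 189 fragments at Hsp70Aa, 210 at Hsp70Ab, 232 at Hsp70Ba, 253 at Hsp70Bbb, 255 at Hsp70Bb and 237 at Hsp70Bc, against a median of 180, and 14.5 to 44.8% of the Oregon R peaks had more. No peak exceeded 285 fragments in the fkh-Gal4 list or 294 in the sage-Gal4 and Oregon R lists. Within 5 fragments of these maxima lay 7 fkh-Gal4, 2 sage-Gal4 and 397 Oregon R peaks. Coverage in the Oregon R list thus crowded near its maximum, so high values there may be compressed, and no such crowding showed in the driver lists. Whether coverage had an upper limit in any list was not tested.

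**Figure D3:**
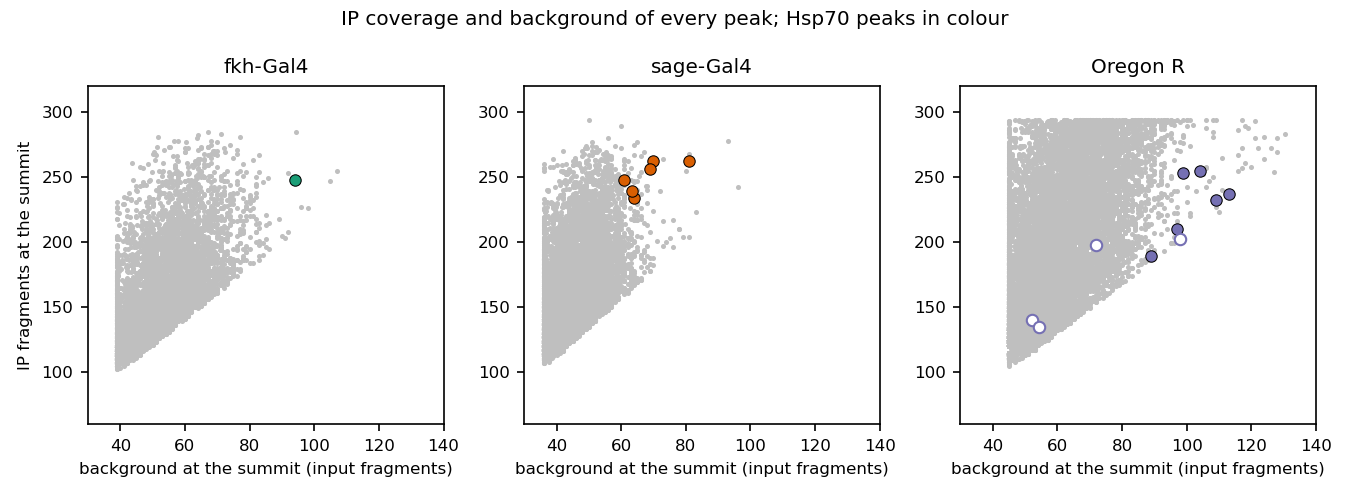
IP fragments at the summit (y axis) against the background at the summit in input fragments (x axis) for every solved peak of the fkh-Gal4, sage-Gal4 and Oregon R lists (grey), with the Hsp70 promoter-side peaks filled in colour and further Hsp70 peaks as open circles. The Hsp70 promoter-side peaks lie at the right of each cloud, with backgrounds of 94 fragments in fkh-Gal4, 61 to 81 in sage-Gal4 and 89 to 113 in Oregon R; in Oregon R those of Hsp70Aa, Hsp70Ab, Hsp70Ba and Hsp70Bc lie near its lower edge, and those of Hsp70Bbb and Hsp70Bb above it.

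The ratio of scaled IP coverage to background at the promoter-side end was 1.58 at Hsp70Bb in the fkh-Gal4 list (95% exact Clopper-Pearson interval 1.24 to 2.02). In the sage-Gal4 list it was 2.17 at Hsp70Ab (1.64 to 2.93), 2.0 at Hsp70Bb (1.53 to 2.64), 1.98 at Hsp70Bc (1.52 to 2.63), 1.96 at Hsp70Aa (1.48 to 2.62), 1.73 at Hsp70Bbb (1.34 to 2.25) and 2.01 at Hsp70Ba, whose background was not a whole number and has no interval. In the Oregon R list it was 1.60 at Hsp70Bbb (1.26 to 2.03), 1.53 at Hsp70Bb (1.21 to 1.94), 1.35 at Hsp70Ab (1.06 to 1.74), 1.33 at Hsp70Aa (1.02 to 1.73), 1.33 at Hsp70Ba (1.05 to 1.68) and 1.31 at Hsp70Bc (1.04 to 1.65). Within a list the intervals of all copies that have one overlapped, so the order of the copies was not resolved by counting error alone. The intervals cover counting error only. They leave out the choice of the summit as the highest point and the crowding of coverage near the maximum in the Oregon R list.

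The folds were then set beside those of other peaks of the same list whose background was within 10% of the member's. Peaks of other Hsp70 copies were not left out of these sets, and the sage-Gal4 set of Hsp70Bbb held only 14 peaks. In the sage-Gal4 list 10.9% of such peaks had a higher fold than Hsp70Bb, 14.1% than Hsp70Bc, 14.3% than Hsp70Bbb, 14.3% than Hsp70Ab, 18.1% than Hsp70Ba and 22.4% than Hsp70Aa, over 14 to 775 peaks. In the fkh-Gal4 list 20% of 15 such peaks were higher than Hsp70Bb. In the Oregon R list 57.0% were higher than Hsp70Bb, 69.2% than Hsp70Bbb, and 92.8 to 97.7% than the other 4 copies, over 35 to 598 peaks. The copies without an fkh-Gal4 peak have no place in this comparison. Among peaks of like background, the listed promoter-side peaks were thus in the upper part of the sage-Gal4 list. The same held in the fkh-Gal4 list for Hsp70Bb alone. In the Oregon R list Hsp70Bb stood near the middle and the other copies lower. This is a description over 1 library each, by the fold that was used in choosing the genes. The difference between lists was not tested.

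**Figure D4:**
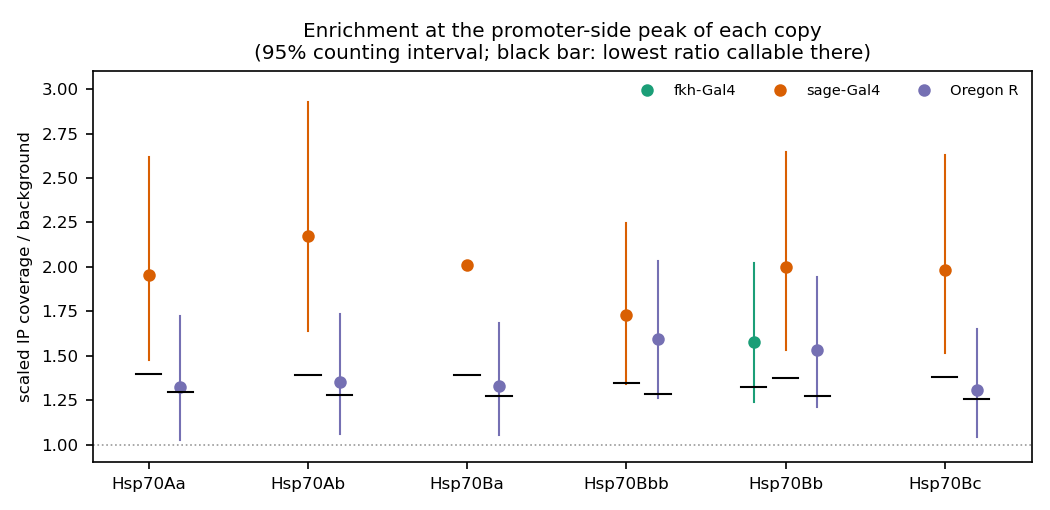
Ratio of scaled IP coverage to background (y axis) at the promoter-side peak of each Hsp70 gene (x axis) in the fkh-Gal4, sage-Gal4 and Oregon R lists, with 95% exact counting intervals and, as a black bar, the lowest ratio that the list's lowest −log10 p would admit at that background. The sage-Gal4 points lie at 1.73 to 2.17, over bars at 1.35 to 1.40, and the Oregon R points at 1.31 to 1.60, over bars at 1.26 to 1.30. The interval starts below the bar at Hsp70Bbb in sage-Gal4 (1.34 against 1.35), at Hsp70Bb in fkh-Gal4 and at every copy in Oregon R. Hsp70Ba has no sage-Gal4 interval.

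A missing peak at the other 5 copies in the fkh-Gal4 list gives a limit only. At the background of Hsp70Bb, 94 fragments, the lowest −log10 p in that list, 2.83, corresponds to a ratio of 1.32. A copy with such a background and a ratio under 1.32 would not have been listed. Its own background there is unknown, since only peaks are given. In the Oregon R list the lowest callable ratios at the members' backgrounds were 1.26 to 1.30, and the ratios at Hsp70Aa, Hsp70Ab, Hsp70Ba and Hsp70Bc, 1.31 to 1.35, lay just above them.

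The highest fold at any of the 6 heat-inducible copies was 1.57 in the fkh-Gal4 list, 2.16 in the sage-Gal4 list and 1.71 in the Oregon R list, below the median of the other genes of the Hsp70 family in each list. By the same rule 33.6%, 43.3% and 67.8% of all protein-coding genes had a peak in the fkh-Gal4, sage-Gal4 and Oregon R lists. Of the 9 other family genes, 7 had a peak in the fkh-Gal4 list, 8 in the sage-Gal4 list and 7 in the Oregon R list. The medians of their highest folds were 2.23, 2.19 and 2.21. In the sage-Gal4 list 2.16 lay just under the median, and several of these genes had lower folds, down to 1.64 at Hsp68. CG7182 had folds of 2.84, 3.21 and 1.75 in the fkh-Gal4, sage-Gal4 and Oregon R lists. Hsc70-3, the Hsp70 of the endoplasmic reticulum, had folds of 2.61, 3.19 and 3.12 in the same order of lists, Grp170, its larger relative there, 2.67, 2.94 and 2.83, and Hsc70-4, the main constitutive Hsp70 of the cytosol, 2.23, 2.22 and 2.21. Hsc70-2 had no peak. Hsp68, the other strongly heat-induced family member, named after its values were seen, had no fkh-Gal4 peak, a sage-Gal4 fold of 1.64 and an Oregon R fold of 2.25.

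The rest of the heat shock response was also covered. By the same rule 33.6%, 43.3% and 67.8% of all protein-coding genes had a peak in the fkh-Gal4, sage-Gal4 and Oregon R lists. Among 12 small heat shock protein genes, 5, 9 and 9 had a peak in these lists. Their best ranked gene was CG14207 (folds 2.56, 2.63 and 2.06), followed by Hsp22, CG4456 and Hsp67Bc, which shared 1 highest peak in each list (1.96, 2.24 and 2.06), while l(2)efl and CG7409 had none. In the sage-Gal4 list Hsp23 and Hsp27 also shared their highest peak (2.21), as did Hsp26, CG4461 and Hsp67Ba (1.98). The counts are therefore of genes and not of separate peaks. Among 16 other genes of the response, 11, 12 and 13 had a peak. They included stv, a cochaperone of the BAG family (2.94, 2.89 and 2.42), Hsp83, the cytosolic Hsp90 (2.41, 2.49 and 2.53), Hsf itself (2.37, 2.19 and 2.46) and mrj, a DnaJ-type cochaperone (2.09, 2.38 and 1.95); Hsp60B and Hsp60C had none. At the solved highest peaks of these 3 groups the background was at most 1.79, 1.88 and 1.91 times the genome-wide value in the fkh-Gal4, sage-Gal4 and Oregon R lists. These peaks were taken by fold, unlike the promoter-side peaks of the Hsp70 copies. Taken by fold, the Oregon R peaks of Hsp70Aa, Hsp70Bbb and Hsp70Bc had 1.59, 1.15 and 1.20 times. Those of Hsp70Ab, Hsp70Ba and Hsp70Bb had 2.15, 2.41 and 2.30 times.

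By the 3 rank percentiles of a gene's highest peak, with 100 for a gene without a peak, the Hsp70 copies averaged 94.2 in the fkh-Gal4 list, 35.0 in the sage-Gal4 list and 85.0 in the Oregon R list. The protein-coding genes nearest to this pattern, by Euclidean distance over the 3 lists, were CG4461 and Hsp26, both small heat shock protein genes at 1 shared highest peak (distance 6.25), then mino, a glycerol-3-phosphate acyltransferase gene (6.69), Dcr-2, the Dicer of the siRNA pathway (7.60), and Tbcd, a tubulin folding cofactor gene (8.28). None of the 5 had an fkh-Gal4 peak, and their sage-Gal4 folds were 1.94 to 1.98. In the driver lists the averages count the Hsp70Bb peak for Hsp70Bbb too, whose own sage-Gal4 peak stood at 68.6. In the Oregon R list they take the peaks inside Hsp70Aa, Hsp70Bbb and Hsp70Bc. A likeness over 3 values describes the lists only.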

How the data were processed

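Per the submitters' processing notes, BWA (reference dm6) and MACS2 2.1.0.20140616 were used. The sources used here do not give how inputs entered the calls, how reads with several equal alignments were placed, whether duplicates were kept, or whether the 2 chromatin collections (fixed in 1.8% formaldehyde, per the labels) were pooled. Per submitters' labels, each IP has an input library, for which no peak list was analysed here.

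The deposited lists hold, per peak, an integer score by the authors' caller, left unused, the authors' fold (a ratio of IP to local background at the summit), the −log10 p and −log10 q (p-value and q-value) as deposited, and the summit offset, an other unit in bp. Read totals were not analysed here. IP coverage and background were solved from the authors' fold and −log10 p with a pseudocount of 1, keeping solutions with a whole number of IP fragments at or above the recurring lowest background, and among several the one with a whole background. On 1366 and 889 simulated peaks, 88.4% and 96% were solved, of which 99.1% and 99.1% were right. These peaks were simulated with the same formulas and solved with no lowest background set. They check the inversion only, not whether the formulas hold for the deposited lists. Simulated peaks of low fold were dropped, so the check does not reach the Oregon R folds of 1.28 to 1.33 at Hsp70 copies. Intervals are 95% exact Clopper-Pearson intervals of the IP share of both counts, rescaled; they and the coverage cover counting error only. A peak was given to the copy with the nearest promoter-side end, ties to the summit before the gene.

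Genes came from a RefSeq table of the release 6 assembly, the assembly of dm6. An overlap of 1 bp counted. The members and gene lists were chosen with earlier results of these data known. Of 45 listed names, 42 matched 41 genes, by symbol or by a synonym of 1 gene. In each list up to 4 genes of best mean rank in the driver lists and 2 without a peak were named, with all genes within 10 kb of a cluster. The planned motif search needs sequences that were not used here. Alternatives were windows of 0, 2 and 5 kb, summits in the window, a −log10 q of at least 10, the 1000 highest peaks, ranks by −log10 q and arms only. Tools were Python 3.11.15, numpy 2.4.6, scipy 1.17.1, pandas 2.3.3 and, for figures, matplotlib 3.10.9.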

Additional observations from a re-analysis of the deposited data

How the results depend on the processing

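Of 33 alternative values for 6 results, 22 stayed within 1.5 times the reported count or within the 95% exact binomial interval of the reported rank position, and 11 moved further. Many of the 22 had little room to move. Restriction to the arms, no flank, or summits in the window kept the same highest peak in each list, and wider windows cannot lower a count. All values by −log10 q or with the 1000 highest peaks moved. The binomial interval serves as a yardstick only and is not a spread of the rank. The fkh-Gal4 count of Hsp70 genes with a peak, 2 by the rule, was 1 with no flank and 3 with 5 kb on each side, where 24.7% and 50.8% of all protein-coding genes had a peak, and 1 when each peak went to the copy with the nearest promoter-side end, an alternative chosen after seeing the data. Restricted to a −log10 q of 10 or more, the counts were 0 of 6 in the fkh-Gal4 list, 3 in the sage-Gal4 list and 0 in the Oregon R list, where 11%, 14.6% and 50.7% of all protein-coding genes kept a peak. With the 1000 peaks of highest fold they were 0, 0 and 0, where 10.1%, 9.23% and 9.95% of all did. Both settings keep fewer peaks by construction. Ranked by −log10 q, the highest member peak stood at 42% of the fkh-Gal4 list, 13.7% of the sage-Gal4 list and 56.2% of the Oregon R list, against 82.6, 23.9 and 66.1% by fold. No paired analysis was possible because each group had 1 library, and no library could be left out for the same reason.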

Other observations

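The flanks of the clusters had peaks of their own. On the left of 87A, CG31211 shared a peak at its border with Cad87A in each list, with folds of 1.75 in the fkh-Gal4 list, 2.34 in the sage-Gal4 list and 2.05 in the Oregon R list and backgrounds of 80, 54.7 and 88 fragments. Cad87A, a cadherin gene, had higher peaks elsewhere (2.97, 2.90 and 2.59). On the right, CG3281 and aurA, which encodes the mitotic kinase Aurora A, shared an Oregon R peak with a fold of 2.39 and had none in the driver lists. CG12213 and GC1 had a sage-Gal4 fold of 1.53 and an Oregon R fold of 2.15, and no fkh-Gal4 peak. Beside 87C, CG18549 had folds of 1.85, 2.01 and 2.66 in the fkh-Gal4, sage-Gal4 and Oregon R lists. The genes trus (2.20), CG5961 and Polr3C (1.94 for both) had peaks in the Oregon R list only. CG5608 and Octbeta3R, the genes next to Hsp70Ba and Hsp70Bc, had none in any list. The pseudogenes CR46154 and CR46155 lie between the tandem copies and had only the peaks of the copies beside them.

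In the 34733 bp between Hsp70Ba and Hsp70Bbb, lncRNA:alphagamma-element:CR32865 had no peak. Elsewhere in this gap there were 1 fkh-Gal4 peak (fold 1.57), 2 sage-Gal4 peaks (1.62 and 1.49) and 4 Oregon R peaks (1.35 to 1.49), with backgrounds of 57, 49 to 55, and 59 to 79 fragments. Among other genes whose sequence a construct can carry, w, the marker gene of many fly vectors, had at its highest peak 150 IP fragments over a background of 56.4 in the fkh-Gal4 list, 255 over 80 in the sage-Gal4 list and 281 over 56 in the Oregon R list. The background at w was 1.45 times the genome-wide value in the fkh-Gal4 list, 2.21 times in the sage-Gal4 list and 1.24 times in the Oregon R list, where the promoter-side peaks of the Hsp70 copies had 2.41, 1.68 to 2.24 and 1.97 to 2.50 times. The peak of w was taken by fold and those of the copies by position, so the values are not fully alike. CrebA, fkh and sage had sage-Gal4 backgrounds of 42, 37.8 and 51.6 fragments and fkh-Gal4 backgrounds of 54, 54 and 58. In the Oregon R list CrebA had 77 fragments and fkh 47.6, and sage had no peak.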
